A study of Mus musculus with 20 samples.

Results

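Tumors of mice hemizygous for a MYCN transgene were compared with tumors of homozygous mice, across all genes measured. The samples were chosen by their titles, which gave 4 hemizygous and 4 homozygous tumors, 8 of the 20 arrays of the study. The 8 tumors shared a mixed 129+Ter/SvJcl background and the transgene, and differed in the labels only in its genotype, hemizygote or homozygote. The other 12 arrays were 2 homozygous tumors with a knockout of Mdk, 2 hemizygous tumorsphere cultures, 4 wild-type and 2 homozygous ganglion samples and 2 wild-type neurosphere cultures. They entered the fit to estimate the spread of each gene, and some of their levels are given beside the tumors. The sources used here do not give the promoter of the transgene, the age of the mice or the site and size of the tumors, nor do they say that each tumor came from its own animal. Transgene dose cannot be told apart from any of these.

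MYCN is a transcription factor of the MYC family, which binds DNA with its partner MAX and drives genes of growth and cell division. Its amplification marks an aggressive form of neuroblastoma, a childhood tumor that arises from neural crest cells of the sympathetic lineage. In the mouse model in widest use, human MYCN is expressed from the tyrosine hydroxylase promoter, and homozygous mice develop tumors sooner and more often than hemizygous mice. A tumor also holds blood vessels, macrophages and connective tissue, whose RNA is measured together with that of the tumor cells. In such bulk RNA, fewer cells of a type and less RNA per cell cannot be told apart.

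The values are intensities of Affymetrix Mouse Genome 430 2.0 probe sets on a linear scale, and differences are log2 of intensity plus 16, hemizygous minus homozygous, ± the standard error of the fit. The hemizygous tumors differed more among themselves: the median SD of a gene was 0.25 log2 units against 0.19, and 65.6% of genes had the larger SD in hemizygous tumors. Correlations between arrays were 0.959 to 0.985 among hemizygous tumors, 0.976 to 0.991 among homozygous tumors and 0.934 to 0.977 between the groups. RNA integrity was read from control probe sets at both ends of a transcript: for beta-actin the 3' signal over the 5' signal was 2.20 ± 0.34 (SD, n = 4) in hemizygous and 2.55 ± 0.17 (SD, n = 4) in homozygous tumors (exact permutation test, two-sided, p = 0.114, where 0.0286 is the smallest value possible). The GAPDH ratio was 2.94 ± 0.19 (SD, n = 4) and 3.07 ± 0.38 (SD, n = 4) (exact permutation test, p = 0.686). Xist and the Y-linked Eif2s3y marked 1 hemizygous and 2 homozygous tumors as female.

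Of 15132 genes tested, 939 (6.21%) differed between hemizygous and homozygous tumors, 524 (3.46%) higher and 415 (2.74%) lower in hemizygous tumors (limma, Benjamini-Hochberg adjusted p under 0.05). The median log2 difference of all tested genes was 0.06. At least 2-fold differences were seen for 202 of the higher and 215 of the lower genes. Among called genes, the 4 tumors of one genotype lay entirely above those of the other for 487 higher and 397 lower genes, and this held for 20.6% of all tested genes (11.8% higher and 8.78% lower). The split between directions depended on the scaling, with 377 higher and 571 lower after quantile normalization and 410 higher and 457 lower after median centring. Single tumors also mattered. Without hemizygous tumor 4 the count of called genes was 468, and without homozygous tumor 1, 2 or 3 it was 446, 498 and 494. Without hemizygous tumor 1, 332 genes were higher and 331 lower.

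**Figure D1:**
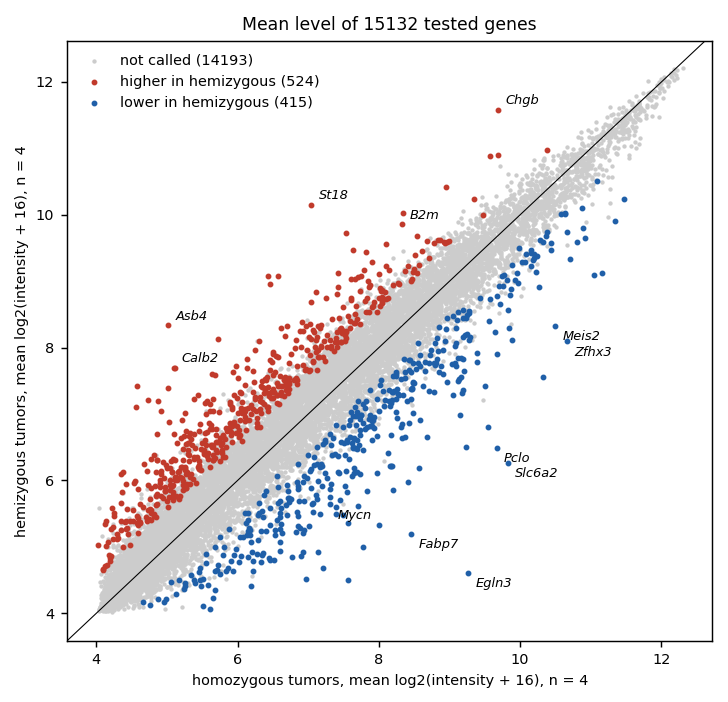
Mean log2(intensity + 16) of the 15132 tested genes in the 4 homozygous tumors (x axis) and the 4 hemizygous tumors (y axis), with the line of equal levels. Red points are the 524 genes called higher and blue points the 415 called lower in hemizygous tumors; Egln3 lies farthest below the line and Asb4 farthest above it among the named genes.

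The 2 homozygous tumors with Mdk knockout gave a second set of homozygous values, in a comparison that shares the hemizygous arrays. Of the 15132 genes, 214 (1.41%) differed between hemizygous tumors and these 2, 90 (0.595%) higher and 124 (0.819%) lower in hemizygous tumors (limma). The log2 differences of leading genes against them were -5.06 ± 0.61 for Egln3, -3.07 ± 0.30 for Pclo, -3.51 ± 0.38 for Fabp7, 3.52 ± 0.53 for Asb4 and 3.23 ± 0.54 for St18 (limma adjusted p = 0.000231, 6.63e-05, 8.72e-05, 0.00195 and 0.0035). The 12 highest and 12 lowest genes were picked from those called without overlap between the genotypes, so a lack of overlap in them is no result. Of these genes, Ak5, Igfbp3, Sema3f, Fgf13 and Tox2 did not pass against these 2 tumors (limma adjusted p = 0.0652, 0.0517, 0.0977, 0.103 and 0.107), and the others did.

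The lowest gene in hemizygous tumors was Egln3, a prolyl hydroxylase that marks hypoxia-inducible factors for degradation and has been linked to the death of sympathetic precursors when growth factor is withdrawn. Its intensity was 6.20, 7.0, 3.34 and 19.8 in hemizygous tumors 1 to 4 and 1129, 871, 453 and 288 in homozygous tumors 1 to 4. The groups did not overlap, and the lowest homozygous tumor was far above the highest hemizygous one. The log2 difference was -4.66 ± 0.50 (limma adjusted p = 1.94e-05), a difference that understates the change, since the hemizygous values lie near or below the 16 added before log2. A second, dimmer Egln3 probe set gave -2.21. Homozygous tumors with Mdk knockout read 517 and 1234, and hemizygous tumorspheres 1.08 and 6.76.

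Egln3 is itself a target of hypoxia-inducible factors, whose binding core is ACGTG. Its promoter is shown because the gene had the largest difference of all. In the RefSeq window (GRCm38.p6, chr12:54203825-54204124, minus strand, 250 bases before to 50 after the gene start, 5' to 3'), the capitals mark ACGTG, which starts 229 bases before the gene start.
Egln3: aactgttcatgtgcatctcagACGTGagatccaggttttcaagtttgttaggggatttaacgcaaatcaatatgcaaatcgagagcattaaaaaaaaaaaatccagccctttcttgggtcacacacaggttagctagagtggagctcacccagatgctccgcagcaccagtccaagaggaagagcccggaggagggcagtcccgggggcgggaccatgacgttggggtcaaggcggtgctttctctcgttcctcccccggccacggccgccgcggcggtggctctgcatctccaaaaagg
On either strand, ACGTG was present in 27.8% of the 12117 tested genes with such a window, so the match is a common one. It was in 27.4% of the windows of higher genes and 23.9% of those of lower genes. Of 30 tested genes of hypoxia and glycolysis, Egln3 and the glucose transporter Slc2a3 (-0.90 ± 0.26, limma adjusted p = 0.045) were lower (6.67%, against 2.74% of all genes). None was higher, and the list median was 0.18. The call of Slc2a3 was lost on leaving out any 1 of the 8 tumors (limma adjusted p = 0.0592 to 0.15).

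Genes of noradrenaline handling were lower in hemizygous tumors. Slc6a2, the noradrenaline transporter by which neuroblastoma is imaged, read 84.6, 435, 15.4 and 8.56 in hemizygous and 729, 1338, 788 and 831 in homozygous tumors. The groups did not overlap although hemizygous tumor 2 came near, and the log2 difference was -3.57 ± 0.62 (limma adjusted p = 0.00241). Of the other probe sets of Slc6a2, all dim in tumors, the brightest over all 20 arrays gave -0.44, and the call was lost in the mean of all its probe sets. Slc18a2, the transporter that loads monoamines into vesicles, read 154, 313, 114 and 106 against 632, 568, 1162 and 613, with no overlap (-2.08 ± 0.41, limma adjusted p = 0.00556). Maoa, which degrades noradrenaline, was also lower in all 4 hemizygous tumors, at 290, 334, 268 and 178 against 772, 652, 552 and 476 (-1.16 ± 0.22, limma adjusted p = 0.00466).

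Of the enzymes that make noradrenaline, only the last step passed the test. Dbh, which turns dopamine into noradrenaline, read 104, 206, 89.8 and 238 in hemizygous and 453, 507, 318 and 352 in homozygous tumors (-1.35 ± 0.31, limma adjusted p = 0.0149). Its adjusted p was 0.0506 without hemizygous tumor 1, 0.0533 without homozygous tumor 1 and 0.0557 without homozygous tumor 2. Th, the rate-limiting enzyme, read 171, 213, 717 and 1770 against 260, 273, 384 and 305 and overlapped (0.61 ± 0.48, limma adjusted p = 0.532). The 4 hemizygous tumors thus spanned a wide range of Th, with tumors 3 and 4 above all homozygous tumors and tumors 1 and 2 below them. Ddc, the enzyme between them, read 2699 to 3384 against 3686 to 3851, which did not overlap but did not pass (-0.28 ± 0.21, limma adjusted p = 0.506).

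The sympathetic noradrenergic list had 6 of 24 tested members lower (25.0%, against 2.74% of all genes) and 1 higher, with a median of -0.32. Besides the genes above, Tbx2 (-1.06 ± 0.17, limma adjusted p = 0.00139) and Hand1 (-0.82), transcription factors of heart and sympathetic development, were lower. Other transcription factors of the lineage stayed short of the threshold: Hand2 differed by -0.37 ± 0.18, Isl1 by -0.24 ± 0.21, Insm1 by -0.10 ± 0.20 and Phox2a by -0.86 ± 0.38 (limma adjusted p = 0.252, 0.587, 0.843 and 0.195). Chgb, a chromogranin of secretory granules, went the other way. It read 3008, 3380, 2742 and 3097 in hemizygous tumors and 605, 762, 981 and 957 in homozygous tumors, without overlap (1.89 ± 0.33, limma adjusted p = 0.00252). Hemizygous tumorspheres were near the hemizygous tumors in 4 of these genes: Chgb read 3943 and 3754, Slc6a2 15.7 and 27.4, Slc18a2 186 and 162, and Maoa 167 and 166. The summed intensity of the list overlapped, at 13380 to 17170 in hemizygous and 15210 to 17800 in homozygous tumors. In tumorspheres the sum was 19000 and 18320, above every tumor.

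Genes of mature neurons were lower too. Of 30 tested members of the differentiated neuron list 7 were lower (23.3%, against 2.74% of all genes). The 1 higher member was the heavy neurofilament Nefh (0.70), and the list median was -0.56. In 14 of the 30 every hemizygous tumor was below every homozygous one, as in 8.78% of all genes. Mapt, the microtubule protein tau, read 40.9, 34.5, 61.0 and 37.9 in hemizygous and 153, 105, 159 and 159 in homozygous tumors (-1.43 ± 0.24, limma adjusted p = 0.00185). Chrna7, a nicotinic acetylcholine receptor subunit, read 318, 426, 193 and 91.1 against 852, 1008, 696 and 687 (-1.77 ± 0.32, limma adjusted p = 0.00343). Scn9a, a sodium channel of sympathetic and sensory neurons, read 103, 67.9, 222 and 101 against 400, 497, 296 and 232 (-1.47 ± 0.28, limma adjusted p = 0.00368). None of the 3 overlapped between the genotypes.

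Rab3c, a small GTPase of synaptic vesicles, read 191, 241, 162 and 146 against 446, 390, 522 and 434 (-1.22 ± 0.19, limma adjusted p = 0.00105), whereas its second brightest probe set gave -0.01. Synuclein gamma, Sncg, read 21.6, 50.4, 3.08 and 11.5 against 92.7, 109, 63.8 and 67.7 (-1.53 ± 0.33, limma adjusted p = 0.00939). The light and medium neurofilament genes fell short of the threshold, with differences of -0.68 ± 0.28 for Nefl and -0.73 ± 0.31 for Nefm (limma adjusted p = 0.166 and 0.182). The summed intensity of the list was 12130 to 15270 in hemizygous and 20880 to 22650 in homozygous tumors, without overlap. In the tumorspheres it was 19710 and 19760, between the groups, and Mapt there read 159 and 230, at or above the homozygous tumors.

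Several genes with the largest decreases are neuronal as well. The largest increases, described below, also held genes of neural cells, brain or synapses. Among these were St18, Nptx2, Ak5 and Htr3a, with differences of 3.11, 2.84, 2.66 and 2.51. Neuronal genes thus stood at both ends of the range, and the genes with the largest differences did not share a direction. Pclo, a scaffold of the presynaptic active zone, read 94.7, 88.3, 68.3 and 52.2 in hemizygous and 992, 1014, 754 and 529 in homozygous tumors (-3.17 ± 0.24, limma adjusted p = 1.47e-06). Its wild-type ganglia read 93.7 ± 28.9 (SD, n = 4), so homozygous tumors, not hemizygous ones, were above normal ganglia. Kcnd2, a potassium channel subunit of transient currents, read 4.28, 15.8, 5.37 and 3.10 against 220, 201, 182 and 113 (-3.07 ± 0.26, limma adjusted p = 2.68e-06). Kcnmb2, a subunit of calcium-activated potassium channels, read 25.4, 18.6, 44.2 and 14.2 against 296, 189, 293 and 202 (-2.67 ± 0.26, limma adjusted p = 1.01e-05). The sorting receptor Sorcs1 (-2.78 ± 0.22), the intracellular fibroblast growth factor Fgf13 (-2.73 ± 0.61), the calcineurin regulator Rcan2 (-2.77 ± 0.34) and Vstm2a (-2.46 ± 0.34) complete this group of low genes. None of them overlapped between the genotypes.

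Transcription factors were among the lowest genes. Zfhx3, a large zinc finger and homeobox protein of neuronal differentiation, read 357, 265, 275 and 167 in hemizygous and 1902, 1576, 1619 and 1349 in homozygous tumors (-2.56 ± 0.42, limma adjusted p = 0.00148). Tox2, an HMG-box factor, read 83.9, 118, 106 and 26.2 against 967, 332, 716 and 514 (-2.73 ± 0.57, limma adjusted p = 0.00769). Meis2, a homeobox partner of Hox proteins, read 278, 211, 549 and 266 against 1625, 1540, 1665 and 1007 (-2.17 ± 0.34, limma adjusted p = 0.000907). Neither gene overlapped, and 3 further probe sets of Meis2 gave -1.88 to -2.32. Hoxc6 (-0.92) and Hoxc5 (-0.94) were the other members of the Hox and positional list called lower, 3 of 21 in all (14.3%, against 2.74% of all genes) and none higher. That count was 1 without hemizygous tumor 3, hemizygous tumor 4 or homozygous tumor 1, and 5 without hemizygous tumor 2.

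**Figure D2:**
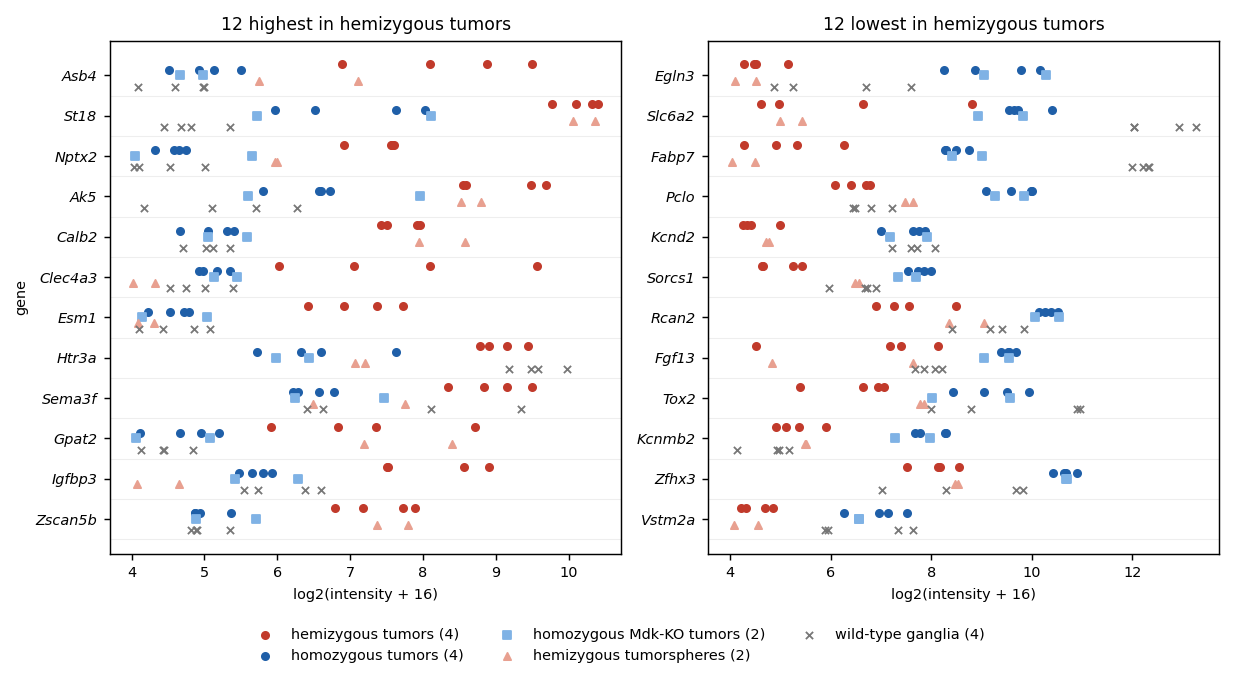
Log2(intensity + 16) of the 12 genes highest (left) and the 12 lowest (right) in hemizygous tumors among those called with no overlap; each point is 1 array, by group. Hemizygous and homozygous tumors are separate in every row by the choice of genes, and the tumorspheres lie with the hemizygous tumors for St18 and Egln3 but not for Esm1, Clec4a3 and Igfbp3.

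Fabp7, Igf2bp3 and Prom1 were lower in hemizygous tumors. Fabp7, a fatty acid binding protein of glial cells and their precursors, read 60.9, 24.5, 3.51 and 14.1 in hemizygous and 415, 345, 299.7 and 295 in homozygous tumors, without overlap (-3.26 ± 0.31, limma adjusted p = 9.41e-06). In wild-type ganglia Fabp7 averaged 4729 ± 471 (SD, n = 4), above every tumor. It belongs to the Schwann and satellite glia list, of which 2 of 20 tested members were lower (10%, against 2.74% of all genes) and 2 higher (10%, against 3.46%), with a median of -0.46. Leaving out 1 tumor gave 1 to 5 lower members, with 5 without hemizygous tumor 1, 4 without hemizygous tumor 2, 3 without hemizygous tumor 4 or homozygous tumor 3 and 1 without homozygous tumor 2 or 4. The myelin gene Mbp differed by -0.30 ± 0.25 (limma adjusted p = 0.567). Its other probe sets, all dimmer in these tumors, did not agree in size and gave -0.09 to -1.31. The summed level of that list was 1562 to 3178 in hemizygous and 2984 to 3455 in homozygous tumors and overlapped. Igf2bp3, a fetal RNA-binding protein that is switched on again in cancers, read 163, 62.5, 115 and 37.7 against 329, 240.1, 286 and 387 (-1.69 ± 0.29, limma adjusted p = 0.0022). The groups did not overlap, and 4 further probe sets with a mean over 25 gave -1.52 to -2.51. Prom1, a surface protein of stem cells, was lower at 49.6, 30.4, 28.0 and 42.6 against 99.9, 108, 83.5 and 81.1 (-1.04 ± 0.20, limma adjusted p = 0.00478). It was the only one called of 28 tested neural crest and neural stem genes (3.57%, against 2.74% of all genes), whose median was 0.04. Sox2, Sox9 and Sox5 of that list did not pass. The Prom1 call was lost within replicates 1 and 2, within replicates 3 and 4, and without homozygous tumor 2 and hemizygous tumor 3.

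Other genes rose in hemizygous tumors to levels that tumorspheres share. St18, a zinc finger transcription factor of neural cells, read 863, 1086, 1338 and 1266 in hemizygous and 46.9, 76.0, 183 and 246 in homozygous tumors (3.11 ± 0.44, limma adjusted p = 0.000418). It read 1301 and 1048 in tumorspheres, 262 and 37.0 in homozygous tumors with Mdk knockout, and 13.2 on average in wild-type ganglia. Calb2, the calcium-binding protein calretinin, read 225, 156, 165 and 233 against 17, 9.42, 23.6 and 26.2 (2.60 ± 0.22, limma adjusted p = 2.68e-06), with 230 and 368 in tumorspheres. Ak5, an adenylate kinase of the brain, read 359, 371, 814 and 698 against 39.9, 79.2, 81.0 and 89.5 (2.66 ± 0.50, limma adjusted p = 0.00379), with 430 and 351 in tumorspheres. The groups of tumors did not overlap in any of these genes.

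The same order was seen for Gpat2, a mitochondrial acyltransferase best known from testis, which read 44.5, 148, 405 and 98.6 against 1.29, 9.26, 20.9 and 15.0 (2.48 ± 0.43, limma adjusted p = 0.00259), with 323 and 130 in tumorspheres. Zscan5b, a zinc finger gene, read 129, 95.2, 221 and 196 against 13.3, 14.7, 13.3 and 25.3 (2.38 ± 0.24, limma adjusted p = 1.65e-05), with 149 and 206 in tumorspheres. Gpat2 and Zscan5b, chosen for no overlap in the same way, were near the lower end of the scale in homozygous tumors.

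Asb4, an ankyrin-repeat adaptor of ubiquitin ligases, had the largest increase. It read 259, 455, 103 and 705 in hemizygous and 14.3, 6.91, 29.1 and 19 in homozygous tumors (3.33 ± 0.43, limma adjusted p = 0.0002), and 38.0 and 122 in tumorspheres. Nptx2, a secreted pentraxin of synapses, read 175, 172, 179 and 105 against 10.8, 8.99, 7.91 and 4.01 (2.84 ± 0.29, limma adjusted p = 1.65e-05). Htr3a, a serotonin-gated ion channel of sympathetic precursors and neurons, read 425, 679, 465 and 555 against 36.7, 63.9, 81.0 and 182 (2.51 ± 0.33, limma adjusted p = 0.000249). In wild-type ganglia Htr3a averaged 752, so here the homozygous tumors were the group below ganglia. The semaphorin Sema3f, a repellent of neural crest cells and vessels, read 442, 309, 709 and 551 against 94.3, 79.3, 58.2 and 61.6 (2.49 ± 0.51, limma adjusted p = 0.00701). The 4 genes, too, were chosen for no overlap.

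Genes of blood vessels were higher in hemizygous tumors. Of 24 tested members of the endothelial and pericyte list 14 were higher (58.3%, against 3.46% of all genes) and none lower, all 24 differences were positive, and the median was 0.89. In 18 of the 24 every hemizygous tumor was above every homozygous one, as in 11.8% of all genes. Kdr, the main receptor of vascular endothelial growth factor, read 211, 191, 109 and 141 in hemizygous and 46.0, 45.7, 59.1 and 63.4 in homozygous tumors (1.33 ± 0.25, limma adjusted p = 0.00357). Sox18, a transcription factor of vessel formation, read 120, 92.1, 100.6 and 143 against 34.5, 25.0, 20.7 and 48.5 (1.45 ± 0.25, limma adjusted p = 0.00198). Eng, a co-receptor of transforming growth factor beta, read 57.8, 65.6, 53.7 and 78.9 against 12.9, 21.4, 23.4 and 29.9 (1.09 ± 0.20, limma adjusted p = 0.00322). The genotypes were separate in all 3 genes.

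Pericytes wrap the endothelium of small vessels, and their markers moved with it. Pdgfrb, the receptor that recruits pericytes, read 303, 192, 222 and 595 against 104, 89.9, 63.0 and 76.0 (1.68 ± 0.33, limma adjusted p = 0.00514). Rgs5, a regulator of G protein signals in pericytes, read 1339, 1543, 981 and 1636 against 509, 405, 521 and 483 (1.47 ± 0.34, limma adjusted p = 0.0138), which became 0.0515 without hemizygous tumor 4. Plvap, which forms the diaphragms of vessel pores, read 131, 129, 91.9 and 184 against 33.5, 29.5, 23.6 and 39.7 (1.63 ± 0.34, limma adjusted p = 0.00813). The genotypes were again separate in each in the probe sets used. The second brightest probe set of Rgs5 gave 0.70 ± 0.34 and overlapped, and dimmer ones gave 1.21 and 0.81. Emcn (1.18 ± 0.24), Egfl7 (0.88 ± 0.19) and Erg (0.89 ± 0.20) were further endothelial genes called higher.

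The defining endothelial markers were less clear-cut. Cdh5, the cadherin of endothelial junctions, read 37.2, 47.1, 58.8 and 81.0 against 25.0, 24.1, 11.0 and 12.4 (1.07 ± 0.27, limma adjusted p = 0.0226). Its adjusted p was 0.0507, 0.0881, 0.0792 and 0.0641 without hemizygous tumor 3, hemizygous tumor 4, homozygous tumor 3 and homozygous tumor 4. Pecam1, an adhesion molecule of endothelium, was dim, at 10.7 to 32.8 against 1.46 to 14.8, and overlapped (0.71 ± 0.24, limma adjusted p = 0.0858). Esm1, a proteoglycan secreted by the tip cells of growing vessels, stood out with 104, 69.8, 150.1 and 196 against 7.02, 2.62, 10.4 and 11.7 (2.54 ± 0.27, limma adjusted p = 1.94e-05). Igfbp3, a carrier of insulin-like growth factors, read 166, 167, 462 and 364 against 45.1, 34.1, 28.6 and 40.0 (2.41 ± 0.46, limma adjusted p = 0.00459). Both are among the 12 highest genes, chosen for no overlap. In tumorspheres, cultured cells in which Kdr read 2.53 and 8.59, Esm1 read 3.73 and 0.91 and Igfbp3 9.17 and 0.91.

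The summed intensity of the 24 vessel genes was 3291, 3392, 2667 and 4407 in hemizygous and 1319, 1222, 1209 and 1349 in homozygous tumors. It was 1341 and 1268 in homozygous tumors with Mdk knockout and 288 and 356 in tumorspheres. Each of the 6 homozygous tumors was thus below the lowest hemizygous tumor. Leaving out 1 tumor left 9 to 13 members called, with 9 without hemizygous tumor 4 and 9 without homozygous tumor 3.

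**Figure D3:**
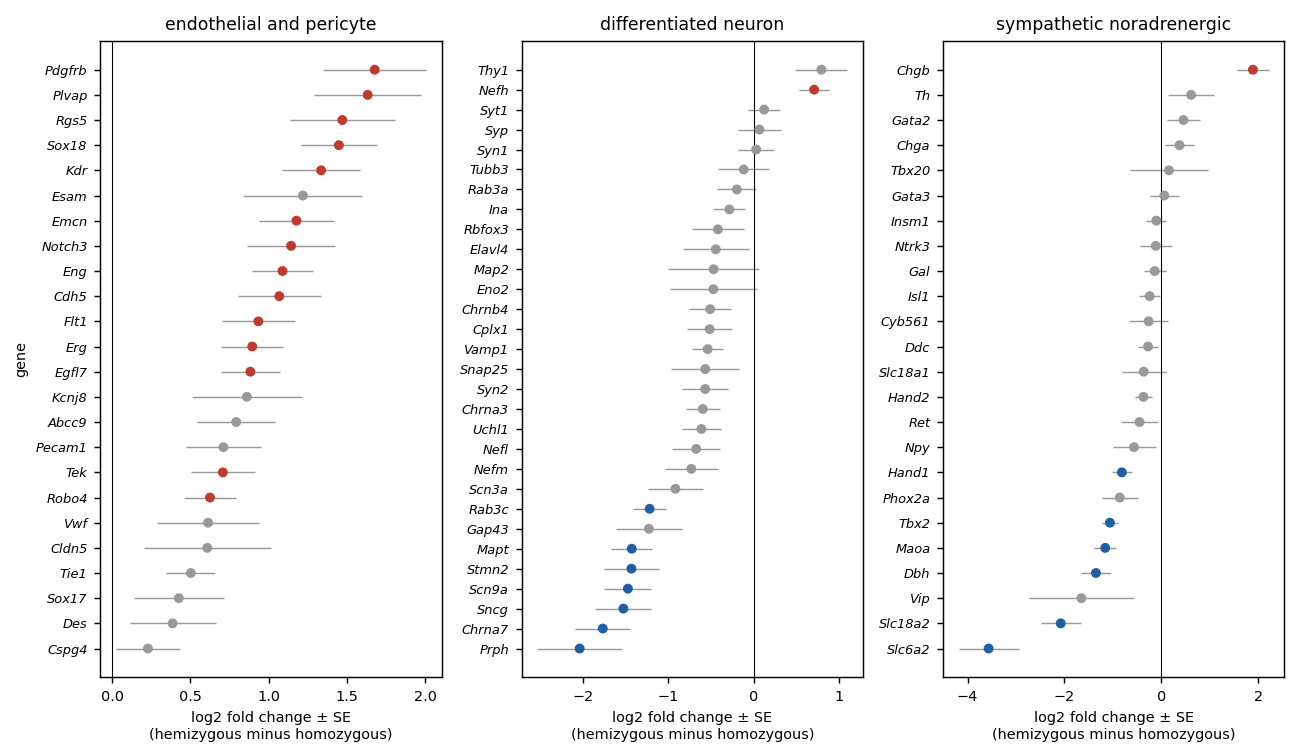
Log2 fold change (hemizygous minus homozygous, ± standard error of the fit over 4 and 4 tumors) of every tested member of the endothelial and pericyte, differentiated neuron and sympathetic noradrenergic lists. Colored points passed the test: 14 vessel genes lie right of 0 and none left of it, 7 neuronal genes lie left and 1 right, and 6 sympathetic genes lie left and 1 right.

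Macrophage genes were higher in part of the hemizygous tumors. Of 29 tested members of the macrophage and myeloid list 8 were higher (27.6%, against 3.46% of all genes) and none lower, with a median of 0.57. Cd68, a lysosomal protein of macrophages, read 323, 180.1, 193 and 429 in hemizygous and 105, 158, 107 and 99.6 in homozygous tumors (1.09 ± 0.24, limma adjusted p = 0.0108). Lgals3, the lectin galectin-3, read 471, 311, 407 and 1127 against 150.2, 258, 175 and 151 (1.43 ± 0.33, limma adjusted p = 0.0134, and 0.0513 without homozygous tumor 1). Clec4a3, a lectin of monocytes, read 740, 117, 49.3 and 259 against 15.5, 14.5, 20.1 and 24.7 (2.58 ± 0.47, limma adjusted p = 0.00322). The genotypes did not overlap in these genes, but Clec4a3 spanned a wide range among hemizygous tumors.

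The defining receptors of macrophages did not pass. Csf1r, the receptor for macrophage colony-stimulating factor, read 961, 902, 289 and 808 against 629, 651, 428 and 535, so that hemizygous tumor 3 was the lowest of the 8 (0.28 ± 0.36, limma adjusted p = 0.745). Adgre1, the F4/80 antigen, read 222, 211, 95.1 and 197 against 106, 97.3, 94.8 and 135 (0.61 ± 0.32, limma adjusted p = 0.297). The summed intensity of the list was 12710, 7979, 4835 and 11320 in hemizygous and 6021, 7199, 5267 and 5442 in homozygous tumors and overlapped through hemizygous tumor 3. Without that tumor 11 members were called. Without hemizygous tumor 1 or 4 the number was 2 each, and without homozygous tumors 1 to 4 it was 1, 4, 2 and 3. In tumorspheres the sum was 246 and 279. No member of the 17 tested lymphocyte genes was called. In 2 of the 17 every hemizygous tumor was above every homozygous one, as in 11.8% of all genes. The T cell receptor genes Cd3e, Cd3d and Cd3g stayed under the filter on low levels.

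Genes of antigen presentation were higher as well. B2m, beta-2 microglobulin, the subunit shared by class I molecules, read 1067, 611, 835 and 1261 in hemizygous and 335, 348, 232 and 320 in homozygous tumors (1.53 ± 0.22, limma adjusted p = 0.000416). H2-K1, a class I heavy chain, read 929, 398, 524 and 497 against 214, 169, 206 and 239 (1.37 ± 0.30, limma adjusted p = 0.00941); its probe sets can match other genes of the family. Nlrc5, the activator of class I genes, read 33.7, 28.9, 26.9 and 36.7 against 11.4, 9.07, 12.6 and 11.8 (0.80 ± 0.17, limma adjusted p = 0.0074). The genotypes were separate in each of the 3. Tumorspheres read 336 and 221 for B2m, below every hemizygous tumor, and 395 and 234 for H2-K1. Of 18 tested class I genes 4 were higher (22.2%, against 3.46% of all genes) and none lower, with a median of 0.47.

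Of 34 tested class II and interferon-induced genes 8 were higher (23.5%, against 3.46% of all genes) and none lower, with a median of 0.40. They included Iigp1, an interferon-induced GTPase that acts against intracellular parasites, at 102, 31.2, 63.5 and 47.9 against 12.3, 18.8, 13.8 and 19.3 (1.19 ± 0.24, limma adjusted p = 0.00694). The class II genes H2-Aa (1.07), H2-Eb1 (1.15) and H2-Ab1 (0.86) were among them. The summed level was 2073 to 3851 in hemizygous and 1483 to 1850 in homozygous tumors, but 2185 and 3344 in homozygous tumors with Mdk knockout, within the hemizygous range, and 4 genes were called with all homozygous tumors together. The count was 2 without hemizygous tumor 1, 1 without hemizygous tumor 4, and 2, 4, 2 and 5 without homozygous tumors 1 to 4. Of 27 complement and chemokine genes 5 were higher (18.5%, against 3.46% of all genes). Among them was Ccl8, a chemokine for monocytes, at 44.5, 39.7, 58.5 and 59.6 against 24.5, 14.8, 17.3 and 18.0 (0.94 ± 0.18, limma adjusted p = 0.00466). The number of complement and chemokine genes called ranged from 1, without hemizygous tumor 1 or 4, to 7, without hemizygous tumor 3. It was 3, 2, 2, 2 and 3 without hemizygous tumor 2 and homozygous tumors 1 to 4. Macrophages carry many of these genes, and the summed macrophage level was higher in hemizygous tumors 1, 2 and 4 than in all homozygous tumors. Its part in the antigen presentation result was not tested.

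Connective tissue differed in a few genes. Fbln2, a fibulin of the extracellular matrix, read 164, 175, 122 and 278 in hemizygous and 28.8, 36.6, 34.5 and 42.7 in homozygous tumors (1.91 ± 0.33, limma adjusted p = 0.00215). Fn1, fibronectin, read 723, 750, 474 and 1135 against 302, 251, 221 and 266 (1.45 ± 0.31, limma adjusted p = 0.00813). Timp1, an inhibitor of matrix proteases, read 74.9, 58.6, 49.7 and 125 against 16.5, 17.4, 24.5 and 29.4 (1.24 ± 0.24, limma adjusted p = 0.00407). These 3 genes did not overlap, whereas the fibrillar collagens did: Col1a1 differed by 0.38 ± 0.40, Col1a2 by 0.38 ± 0.32 and Col3a1 by -0.16 ± 0.44 (limma adjusted p = 0.675, 0.559 and 0.901). Of 29 tested fibroblast and matrix genes 4 were higher (13.8%, against 3.46% of all genes) and none lower. The summed level of that list overlapped, at 6459 to 14020 against 8263 to 9906.

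**Figure D4:**
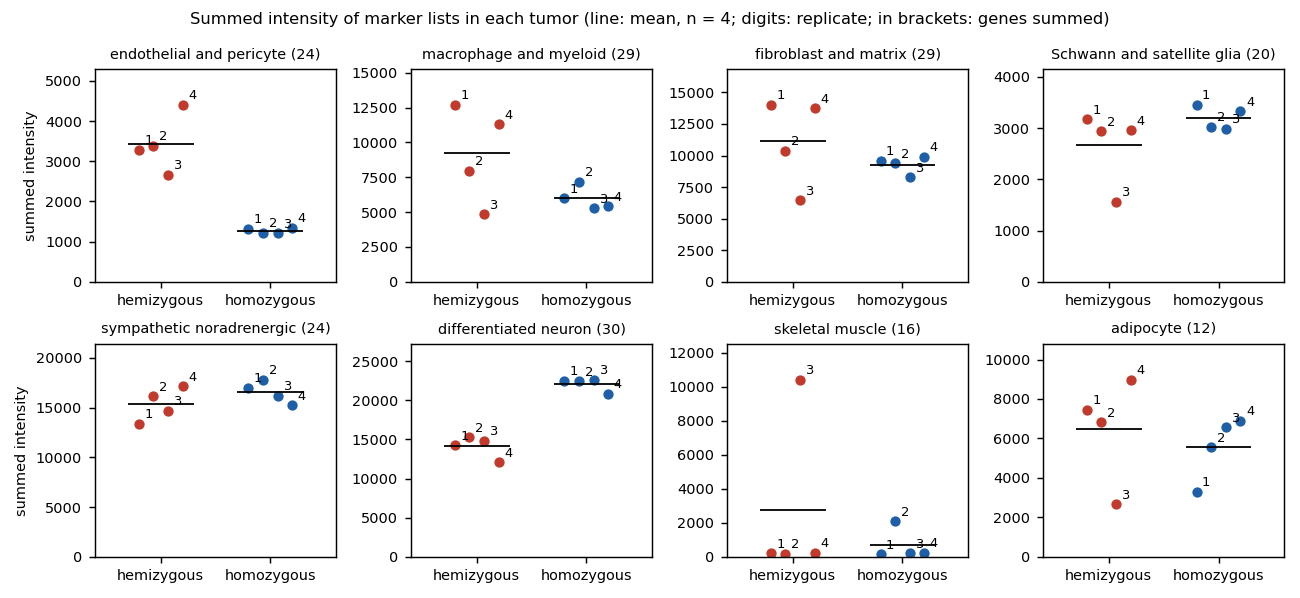
Summed intensity of 8 marker lists in each of the 4 hemizygous and 4 homozygous tumors, with the replicate number beside each point and a line at the mean; the y axes start at 0. The groups are separate for vessel and neuronal genes and overlap for the other lists shown, and skeletal muscle is high in hemizygous tumor 3 and homozygous tumor 2.

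Vessel, macrophage and matrix genes take part of the RNA of a bulk sample. The neuronal and vessel sums each separated the genotypes, so the 4 hemizygous tumors were at once the lowest in neuronal and the highest in vessel sums. Hemizygous tumor 3, with a neuronal sum of 14830, had the lowest macrophage and matrix sums of the 8 tumors. The part of these lists in the lower neuronal levels and in the sympathetic genes called lower was not tested. In tumorspheres the vessel and macrophage sums were below those of every tumor. Skeletal muscle genes were carried by hemizygous tumor 3, with a sum of 10420, and homozygous tumor 2, with 2095, against 140 to 246 in the other 6 tumors. Acta1, the skeletal muscle actin, read 2390 and 438 there and 12.5 to 44.1 elsewhere. Without these 2 tumors 287 genes were higher and 192 lower. None of the 16 muscle, 12 adipocyte, 9 erythroid or 9 adrenal genes tested was called.

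Genes of ribosome production and MYC targets, taken as a joint list, leaned to the hemizygous side. Of 43 tested members of this ribosome biogenesis and MYC target list 41 had a positive difference, with a median of 0.49. In 21 of them every hemizygous tumor was above every homozygous one, as in 11.8% of all genes. The test called 5 members higher (11.6%, against 3.46% of all genes) and none lower. Rrp9, a component of the U3 particle that processes ribosomal RNA, read 125, 142, 208 and 211 in hemizygous and 97.3, 85.6, 44.4 and 56.7 in homozygous tumors (1.12 ± 0.23, limma adjusted p = 0.0079). Heatr1, needed for transcription of ribosomal RNA, read 403, 456, 367 and 373 against 176, 201, 195 and 270.0 (0.89 ± 0.20, limma adjusted p = 0.0117, and 0.0513 without homozygous tumor 1). Nop2, a methyltransferase of ribosomal RNA, read 132, 126, 176 and 176 against 80.1, 110, 72.6 and 99.8 (0.66 ± 0.17, limma adjusted p = 0.0265). Its adjusted p was 0.0728, 0.092, 0.0894 and 0.0927 without hemizygous tumors 3 and 4 and homozygous tumors 1 and 3. The genotypes were separate in all 3 genes.

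The number of ribosome biogenesis and MYC target genes called was 3, 5, 2 and 4 without hemizygous tumors 1 to 4 and 1, 3, 2 and 4 without homozygous tumors 1 to 4. It was 1 with a pseudocount of 1, 1 without homozygous tumor 2 and hemizygous tumor 3, 3 with median centring, 10 with a pseudocount of 64 and 19 with only the 8 tumors in the fit. The summed intensity of the list was 27420 to 33080 in hemizygous and 22520 to 24870 in homozygous tumors, without overlap, and 28680 and 23330 in homozygous tumors with Mdk knockout, so that 1 of these lay in the hemizygous range. Genes of the cytosolic ribosomal proteins (none of 26), translation factors (none of 25) and nucleotide synthesis (Dhodh, 1 of 21, or 4.76%) were called higher about as often as all genes (3.46%) or not at all. The ribosomal protein sum was 48370 to 51600 in hemizygous tumors 1 and 2 and homozygous tumors 3 and 4. In hemizygous tumors 3 and 4 and homozygous tumors 1 and 2 it was 59310 to 70990. This split crosses the genotypes, adds to the spread within each, and no fit adjusted for it. The call of Dhodh was lost on leaving out any 1 of the 8 tumors (limma adjusted p = 0.0614 to 0.165), and with only the 8 tumors in the fit 8 of the 21 were called.

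MYC and MAX bind CACGTG, the E-box. Promoters of a higher and a lower gene that hold it are shown to set the letters beside the opposite differences of Nop2 and Igf2bp3. The windows are from RefSeq (GRCm38.p6, 250 bases before to 50 after the gene start, 5' to 3', Nop2 at chr6:125131633-125131932 on the plus strand and Igf2bp3 at chr6:49214905-49215204 on the minus strand), and capitals mark CACGTG.
Nop2: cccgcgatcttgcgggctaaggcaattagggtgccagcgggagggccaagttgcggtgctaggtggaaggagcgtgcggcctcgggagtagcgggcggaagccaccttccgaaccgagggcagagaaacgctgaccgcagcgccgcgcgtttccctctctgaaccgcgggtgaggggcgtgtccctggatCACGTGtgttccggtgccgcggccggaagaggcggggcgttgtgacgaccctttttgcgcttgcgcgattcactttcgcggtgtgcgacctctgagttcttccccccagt
Igf2bp3: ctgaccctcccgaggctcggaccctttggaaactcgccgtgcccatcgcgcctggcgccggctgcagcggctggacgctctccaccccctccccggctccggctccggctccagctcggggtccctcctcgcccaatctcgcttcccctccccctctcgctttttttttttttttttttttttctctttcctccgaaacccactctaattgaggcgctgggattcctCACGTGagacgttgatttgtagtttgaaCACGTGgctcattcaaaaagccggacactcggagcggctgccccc
The match of Nop2 starts 60 bases before the gene start, and those of Igf2bp3 start 23 bases before and 5 bases after it. CACGTG, which reads the same on both strands and contains ACGTG, was present in 50 of 420 windows of higher genes (11.9%), 28 of 330 of lower genes (8.48%) and 1321 of 12117 of all tested genes (10.9%). The match is a description of the letters and not of binding.

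The mouse Mycn gene itself was lower in hemizygous tumors in its brightest probe set. It read 15.7, 19.1, 43.9 and 77.7 in hemizygous and 153, 134, 171 and 120 in homozygous tumors, without overlap (-1.67 ± 0.28, limma adjusted p = 0.00175). The other probe sets of Mycn gave 0.23 and 0.12, and the call was lost in the mean of all 3. It is not known here which of these probe sets, if any, reads the transgene, so no level of the transgene is stated. Mycl, the family member of lung cancers, differed by -0.98 ± 0.33 and Myc by 0.25 ± 0.32 (limma adjusted p = 0.089 and 0.745). Of 14 tested genes of the Myc, Max and Mxd network Mycn alone was called (7.14%, against 2.74% of all genes called lower).

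Cell division genes were called no more often than genes at large. Mki67, the proliferation antigen, read 2480, 2379, 2630 and 2101 in hemizygous and 2365, 2578, 2529 and 2287 in homozygous tumors (-0.03 ± 0.27, limma adjusted p = 0.974). Top2a, which untangles replicating DNA, read 1596 to 1821 against 1887 to 2048 (-0.18 ± 0.25, limma adjusted p = 0.766). Of 44 tested cell cycle genes none was called higher and 1 was called lower (2.27%, against 2.74% of all genes), 36 differences were positive, and the median was 0.20, against 0.06 over all genes. The lower gene was Ccne1, the cyclin E that starts DNA replication, at 1053, 769, 885 and 690.0 against 1622, 1619, 1622 and 1592 (-0.93 ± 0.18, limma adjusted p = 0.00413). The homozygous tumors were nearly equal in Ccne1, all above the hemizygous ones.

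Midkine, the growth factor knocked out in another arm of the study, did not pass between the genotypes. Mdk read 298, 206, 422 and 432 in hemizygous and 297, 268, 269 and 271 in homozygous tumors, with overlap (0.23 ± 0.23, limma adjusted p = 0.663). Among its candidate receptors, Ptprz1, a receptor phosphatase, read 43.8, 29.7, 13 and 17.7 against 104, 71.5, 71.0 and 85.4 (-1.28 ± 0.27, limma adjusted p = 0.00877). Alk, a receptor kinase mutated in neuroblastoma, read 148, 100.8, 148 and 104 against 304, 289, 225 and 203 (-0.94 ± 0.23, limma adjusted p = 0.0219). The groups did not overlap in either receptor. Without hemizygous tumor 2 or 4 or homozygous tumor 1 or 2, in turn, the limma adjusted p of Alk was 0.0523, 0.0744, 0.0809 and 0.0711. Ptprz1 and Alk were the only members called among 17 tested of midkine, pleiotrophin and their receptors (11.8%, against 2.74% of all genes called lower).

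Of the Notch pathway, in which midkine has been placed, 1 of 23 tested genes was lower (4.35%, against 2.74% of all genes) and 1 higher (4.35%, against 3.46%). The lower one was Dll1, a Notch ligand, at 34.1, 33.8, 31.8 and 49.4 against 128, 146, 114 and 108, without overlap (-1.40 ± 0.27, limma adjusted p = 0.00483). The higher one was Notch3 (1.14 ± 0.28, limma adjusted p = 0.022), a receptor of pericytes that the vessel list holds too. Its adjusted p (limma) was 0.0864 without hemizygous tumor 4 and 0.0739 without homozygous tumor 3. The receptor Notch2 (0.41 ± 0.49) and the target gene Hes1 (0.55 ± 0.39) did not pass (limma adjusted p = 0.72 and 0.48), although Hes1 was higher in all 4 hemizygous tumors, at 26.9 to 50.8 against 18.9 to 20.8.

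A few further genes stood apart in other lists. Ier5, an immediate early gene, read 275, 265, 261 and 371 against 91.6, 91.9, 112 and 132 (1.33 ± 0.24, limma adjusted p = 0.00291). It was the only one called of 27 in that list (3.7%, against 3.46% of all genes called higher). Fdft1, squalene synthase of the sterol pathway, read 526, 474, 502 and 514 against 982, 1134, 879 and 861 (-0.91 ± 0.17, limma adjusted p = 0.00331). It was the only one called of 21 (4.76%, against 2.74% of all genes called lower). The genotypes were separate in both genes in the probe sets used. A second bright probe set of Fdft1 gave -0.38 and overlapped, with 357 in hemizygous tumor 3 and 288 in homozygous tumor 2. The call of Fdft1 was lost in the mean of all its probe sets. The sterol list as a whole summed to 6690 to 7731 in hemizygous and 9561 to 9808 in homozygous tumors, without overlap, although 1 member passed.

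**Figure D5:**
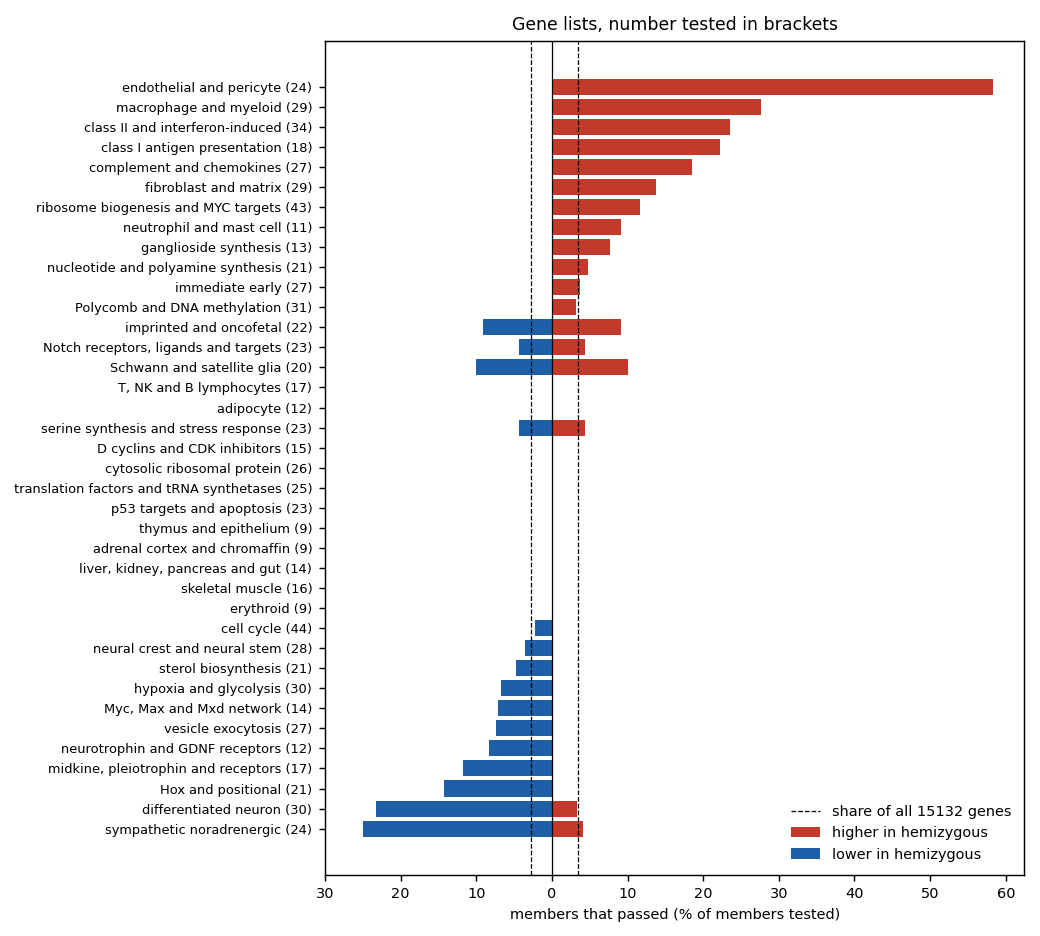
Share of the tested members of each gene list (number tested in brackets) called higher (red, to the right) or lower (blue, to the left) in hemizygous tumors, with dashed lines at the shares among all 15132 genes, 3.46% and 2.74%. Endothelial and pericyte genes lead on the higher side, and sympathetic and neuronal genes on the lower side.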

How the data were processed

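Per the labels' protocols, RNA of frozen tissue was extracted with Isogen and 40 ng was amplified in 2 cycles to biotinylated cRNA. The deposited values were linear probe set intensity values, which the authors had scaled: the mean of every array, trimmed by 2% at each end, was 100. The sources used here do not name the summarizing software.

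Each deposited intensity plus 16 was taken to log2 without further normalization, since array medians spanned 0.33 on that scale, under a limit of 0.5. Fold changes of dim genes are therefore understated. Of 45037 probe sets that are no controls, the platform annotation gave 1 symbol for 34945, several for 932 and none for 9160; 34741 symbols were updated through RefSeq (GRCm38.p6). Each of 18193 genes was read by its probe set of highest mean log2 value over the 20 arrays, and 15132 above the 40th percentile of an array on at least 2 arrays were tested. Among the named genes, 45 were read by probe sets that can match several transcripts.

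All 20 arrays were fitted with 7 group means (limma 3.58.1, R 4.3.3, lmFit and eBayes, two-sided, Benjamini-Hochberg adjustment, threshold 0.05). The fit assumes 1 spread per gene in all groups. Since no label says that samples were separate animals, p-values cover only the spread among the arrays, part of which may be technical, and the number of arrays limits the precision.

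Named genes were the 12 highest and 12 lowest called without overlap and the 3 members of smallest p of each list with a call. Mdk, Mycn, Notch2, Hes1, Ptprz1 and Alk were always named, as were 3 defining markers per cell type. The rule named 120; Pdgfrb, Emcn, Plvap, Egfl7, Erg, Rgs5, Maoa, Slc18a2, Scn9a, Sncg, Mycl, Myc, Hand2, Isl1, Insm1, Phox2a, Mki67 and Top2a were added after their values were seen, as were list members named with a difference alone. Members and the 39 gene lists were chosen with earlier results of these data known. On simulated arrays for this comparison (15132 genes), 64% of genes changed by 1 log2 unit and 98% changed by 2 were recovered, and 4.14% of calls were false. The simulation drew independent arrays with 1 spread per gene in all groups, as the fit assumes. It does not cover the unequal spread of the tumors, so the share of false calls in the real data is not known.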

Additional observations from a re-analysis of the deposited data

Results flagged for a closer look

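In each group of 4 tumors the lowest or highest value was marked where its gap to the next took more of the range on the log2 scale than Dixon's 95% critical value for 4 samples. This held for 22 of 214 groups of values looked at, and chance alone marks about 1 in 20.

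Among the leading genes, Nptx2 was lowest in hemizygous tumor 4 (105.2), Ak5 in homozygous tumor 1 (39.9), and Zscan5b highest in homozygous tumor 4 (25.31). Of the sympathetic and neuronal genes, Tbx2 was lowest in homozygous tumor 4 (191.7), Slc18a2 highest in homozygous tumor 3 (1162) and Mapt lowest in homozygous tumor 2 (105.3). Homozygous tumor 4 was also lowest in Meis2 (1007) and in Ccne1 (1592), where the range is narrow. Its summed neuronal level was the lowest of its group (20880) and its class I level the highest (6849).

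Hemizygous tumor 3 was lowest in the macrophage genes Csf1r (288.7) and Adgre1 (95.06) and in the summed glial level (1562), and highest in the muscle actin Acta1 (2390) and the summed muscle level (10420). Cd68 was highest in homozygous tumor 2 (158.2), where Acta1 was high as well (437.5). Hemizygous tumor 4 was highest in Ier5 (370.7), Dll1 (49.44) and the summed level of liver, kidney, pancreas and gut genes (853.3), and lowest in the summed Hox and positional genes (1964). Mdk was highest in homozygous tumor 1 (297.4), again in a narrow range.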

How the results depend on the processing

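The count of 939 genes stayed within 1.5 times under quantile normalization (948, of which 765 were among the 939), median centring (867), a pseudocount of 64 (1078), 3 other filters (944 to 992), the mean of probe sets (902), a trended robust variance (883), a term for replicates 1 and 2 against 3 and 4 (1045), within replicates 3 and 4 (660) and a sex term (1228). It moved further with a pseudocount of 1 (565, with 283 higher), only the 8 tumors in the fit (1966, with 1114 higher and 852 lower), within replicates 1 and 2 (336, with 165 and 171), without homozygous tumor 2 and hemizygous tumor 3 (479, with 287 and 192), all homozygous tumors together (1429, with 801 and 628) and a 2-fold minimum (417, with 202 and 215). The cause was not tested. Leaving out 1 tumor gave 446 to 945 genes, 216 to 559 higher and 230 to 386 lower. With the replicate block the count was 821 (446 higher, 375 lower). Same-numbered tumors deviated apart (correlations of -0.13 to -0.31), so the numbers do not pair the samples. Hemizygous tumors 1 and 2 deviated with homozygous tumors 3 and 4 (0.228 to 0.301), and hemizygous tumors 3 and 4 with homozygous tumors 1 and 2 (0.151 to 0.312). The term for replicates 1 and 2 against 3 and 4 and the fits within replicates do not follow that grouping. They cannot adjust for it, and no fit with it was made. Of 89 named genes that passed, 61 passed without each tumor in turn and 20 under every setting, and none reversed. Dim genes, 4 tumors a group and unequal spread limit precision.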

Other observations

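When genes were placed on chromosomes through RefSeq (GRCm38.p6 names only, after the data were seen), hemizygous tumor 3 differed along chromosome 17. Over the 392 genes of that chromosome with a mean intensity over 50, its median log2 difference from the mean of the homozygous tumors was 0.40, and 74.7% of the genes were above that mean. The same median was 0.09, 0.08 and 0.19 in hemizygous tumors 1, 2 and 4. Over all 20 chromosomes it was 0.06 in hemizygous tumor 3, and on the other autosomes the hemizygous tumors ranged from -0.10 to 0.20. The X chromosome went lower in each hemizygous tumor, with medians of -0.18, -0.07, -0.12 and -0.10, and 35 of its 495 tested genes (7.07%) were called lower, against 2.72% over all chromosomes. Tumorspheres read -0.18 and -0.17 on the X and 0.19 and 0.17 on chromosome 17, and homozygous tumors with Mdk knockout -0.07 and -0.02 on the X and 0.05 and 0.01 on chromosome 17. The homozygous tumors, which make up the mean, stayed between -0.04 and 0.03. DNA copy number was not measured, and no test was made of these medians.

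Asb4 and Sgce lie near each other on chromosome 6, in a stretch known for imprinted genes, which are expressed from 1 parental copy. The stretch from Tfpi2 to Pdk4 was chosen after the data were seen, around genes already called, so its counts are no test. Of its 13 tested genes, 5 were higher in hemizygous tumors (limma, against 3.46% of all genes) and none lower. The 5 were Tfpi2, a protease inhibitor (1.05 ± 0.19), Gng11, a G protein subunit (1.55 ± 0.33), Sgce, a sarcoglycan (1.68 ± 0.27), Peg10, a gene derived from a retrotransposon (0.88 ± 0.24), and Asb4 (3.33 ± 0.43). Sgce read 1036, 917, 1274 and 908 in hemizygous and 206, 226, 406 and 474 in homozygous tumors, and a dimmer probe set of it gave 0.27. Their neighbours Casd1 (-0.09 ± 0.21) and Ppp1r9a (-0.20 ± 0.19), expressed at 1322 and 418 on average in hemizygous tumors, did not pass (limma adjusted p = 0.876 and 0.646). In tumorspheres Sgce read 1119 and 852 and Peg10 30.9 and 33.1, near the hemizygous tumors, whereas Gng11 read 2.86 and 4.64 and Tfpi2 0.13 and 0.29. The 5 genes, which share a direction in tumors by being called higher, thus did not share a level in cultured cells.

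Levels in tumorspheres also differed between the higher and lower genes as sets. Of the 524 higher genes, 17.9% were below the 40th percentile of the array in both tumorsphere cultures, against 9.40% of the 415 lower genes and 15.4% of all tested genes. In wild-type ganglia the shares below it on all 4 arrays were 7.06%, 2.65% and 4.57%. These are descriptions of the chosen genes, with no test.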
